A study of Mus musculus with 9 samples.

Results

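The solute carrier genes (symbol Slc and a family number) encode membrane proteins that move ions, nutrients, metals and metabolites across the cell surface and organelle membranes. The members described here are all probe sets of the array with 1 platform gene symbol that starts with Slc and a digit, without Slc2a1, Slc11a1 and Slc40a1. The rule found 183 of 12488 probe sets, which belong to 149 genes, and used no measured value. Of these, 125 probe sets (109 genes) passed the filter on low mean signal and were tested, 68.3% against 70% of all non-control probe sets.

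CD11b is integrin alpha M, a surface protein of neutrophils, monocytes and macrophages, and the cells that carry it were sorted from the spleen of female mice, 8 to 12 weeks old. Each sample was measured on an Affymetrix array of the MG-U74Av2 type, 9 in all and 3 per group. Tumor-free samples came from mice without a tumor. Mice with a tumor gave the other groups: fresh samples, taken at 0 h, and cultured samples, kept 24 h in complete medium. The labels name neither the tumor nor the strain, and give no cultured sample of tumor-free mice, so tumor and culture cannot be told apart where cultured and tumor-free cells are compared. They do not say whether replicates came from separate mice or from pools, so the spread behind each p-value is only that between the arrays at hand and may be technical.

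Solute carriers work along gradients. Some exchange one solute for another, some couple a solute to the sodium gradient made by the sodium and potassium pump, and the mitochondrial family links the cytosol to the respiring matrix. In phagocytes they are known for supplying arginine, cystine and glutamine, for recovering metals and heme from engulfed cells, and for setting cell volume and pH.

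Each value is a MAS5 signal, the brightness of a probe set on a linear scale, and fold changes are differences of log2(signal + 7.83), which understate changes of dim genes. In each group 1 array stood apart. The lowest correlation over tested probe sets with an array of its group was 0.823 for tumor-free 1, 0.874 for fresh 3 and 0.85 for cultured 3, whereas the remaining pairs correlated at 0.957, 0.949 and 0.929. The same arrays differed in mean log2 bacterial spike-in signal, which was 10.38 on tumor-free 1 and 9.68 to 9.79 on its pair. Fresh 3 had 9.03 where its pair had 9.89 to 9.93, and cultured 3 had 9.29 where its pair had 10.51. The ratio of actin signal at the 3′ over the 5′ end, a sign of RNA quality, was 2.57 on tumor-free 1 and 0.994 and 1.19 on its pair. It was 2.27 and 2.36 on cultured 1 and 2 and 1.16 on cultured 3, and 1.35 to 1.59 on the fresh arrays. The part of RNA quality in the results was not tested. Values are therefore also given within the high class (tumor-free 1, fresh 1 and 2, cultured 1 and 2) and the low class (the other 4 arrays), as values on 2 and 1 residual degrees of freedom. Itgam, which encodes CD11b, had signals of 244 to 373 in tumor-free, 392 to 585 in fresh and 333 to 954 in cultured samples. None of the 7 CD11b+ cell markers tested passed limma's test in any comparison. At an unadjusted p below 0.05 there were 1, 0 and 0 in the order of the comparisons below. These are 14.3%, 0% and 0%, against 16.7%, 16.3% and 14.1% of all probe sets. In fresh cells 2 of the 7, Itgam and Cd14, lay wholly above tumor-free cells (28.6%, against 9.34% of all probe sets).

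Of the 149 genes, each taken by its brightest probe set, 46 had a signal above the array's median on all 9 arrays, 49 on none and 54 on some. The median of an array lay between 33.4 and 42.8. Brightness also depends on the probes, so this is a description of signal and not an order of transcript levels. Roles were assigned by family number, apart from single genes set separately, so a group can hold carriers of other solutes or membranes. The amino acid and peptide group holds the monoamine carriers Slc6a2, Slc6a3 and Slc6a4 and the creatine carrier Slc6a8. The mitochondrial group holds the peroxisomal carrier Slc25a17. The bright genes included 10 of 33 amino acid and peptide carriers, among them the glycoprotein chain Slc3a2, the leucine carrier chain Slc7a5, the taurine carrier Slc6a6 and the glutamine carriers Slc38a2 and Slc38a5. They included 10 of 20 mitochondrial carriers, such as the citrate carrier Slc25a1 and the adenine nucleotide carriers Slc25a4 and Slc25a5. They also included 6 of 15 metal carriers, 4 of 17 inorganic ion and pH exchangers and 2 of 8 sugar carriers. Only 1 of 5 fatty acid carriers was bright throughout, Slc27a4, and only 1 of 7 organic acid, phosphate and sulfate carriers, the phosphate carrier Slc20a1.

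The first comparison set carriers of fresh cells against those of the tumor-free group. Of the 125 tested member probe sets 1 fell, Slc12a2, and 0 rose in limma (adjusted p under 0.05), which is 0.8% against 1.9% of all 8695 probe sets tested. Over all probe sets 0.943% rose and 0.955% fell. At an unadjusted p below 0.05 there were 21, or 16.8% against 16.7% of all. The groups did not overlap for 29 members (23.2%) against 22.4% of all probe sets, with fresh cells higher in 12.8% of members (all 9.34%) and lower in 10.4% (all 13.1%). The totals at an unadjusted p below 0.05 and of groups that did not overlap were thus near the background. By value, 60.8% of members were higher in fresh cells, against 50.6% of all probe sets. The median log2 fold change of the members was 0.15, against 0.01 over all probe sets.

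The second comparison asked what 24 h of culture changed in cells of tumor-bearing mice. Here 2 member probe sets rose, those of the heme carrier Slc48a1 and of the zinc carrier Slc39a4, and 2 fell, those of the acylcarnitine carrier Slc25a20 and of the adaptor Slc9a3r1. These 4 are 3.2% of the members against 2.69% of all probe sets, of which 1.52% rose and 1.17% fell, and 24 (19.2%, against 16.3% of all) had an unadjusted p below 0.05. For 28 members (22.4%, against 22.2% of all) the groups did not overlap, with cultured cells higher in 10.4% (all 13.4%) and lower in 12% (all 8.81%). The third comparison set cultured cells against tumor-free cells, and again Slc12a2 alone fell and 0 members rose, 0.8% of members against 1.23% of all (0.587% rose and 0.644% fell), with 24 (19.2%, against 14.1% of all) at an unadjusted p below 0.05. The groups did not overlap for 26 members (20.8%, against 18.5%), higher in 11.2% (all 10.3%) and lower in 9.6% (all 8.2%). Each pair of comparisons shares 3 arrays, so their values for 1 gene are not independent.

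**Figure D1:**
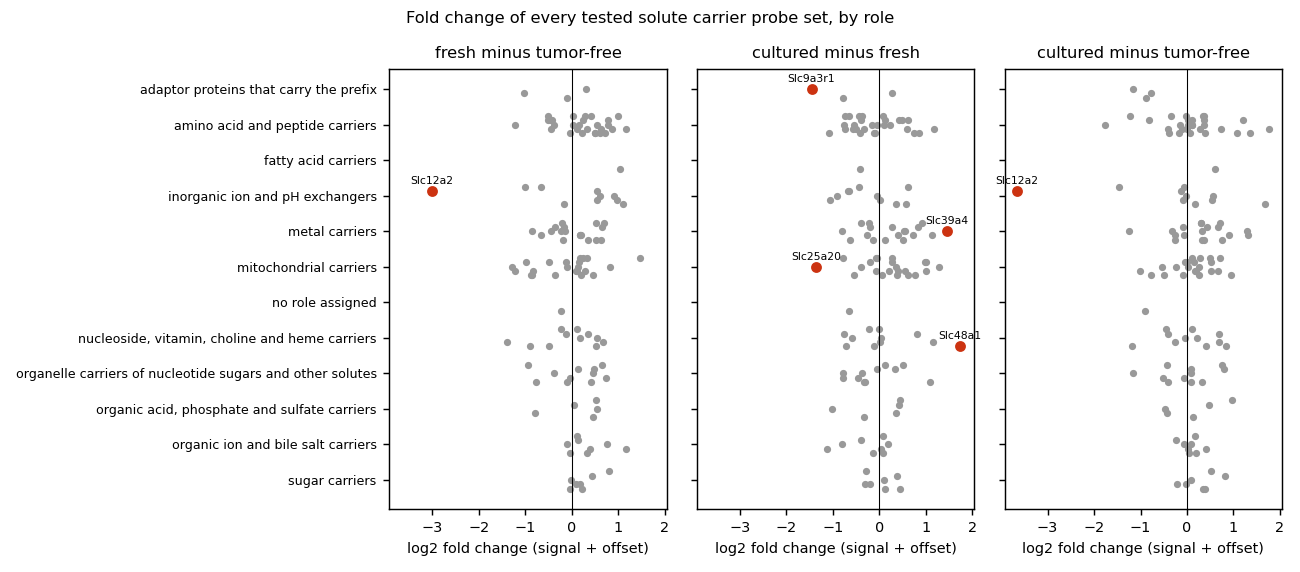
Each point is 1 of the 125 tested member probe sets, placed by its log2 fold change on the signal + offset scale (x axis) and its role (rows) in the 3 comparisons. Red points had a limma adjusted p under 0.05. Slc12a2, at -3.01 and -3.66, lies apart from all other members in both comparisons with tumor-free cells, and the 4 called members of the culture comparison lie between -1.46 and 1.74.

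Slc12a2, which encodes the cotransporter NKCC1 that brings sodium, potassium and chloride into cells, was the member that differed most. Its signal was 198, 777 and 796 on tumor-free 1, 2 and 3. It was 57.95, 61.1 and 47.1 on the fresh arrays and 30.4, 28.8 and 38.5 on the cultured arrays. Every tumor-bearing array lay below every tumor-free array, and tumor-free 1 lay well below its pair. The mean went from 590 ± 340 (SD, n = 3) in tumor-free to 55.4 ± 7.34 in fresh and 32.6 ± 5.19 in cultured cells. The log2 fold change was -3.01 ± 0.46 (SE, limma adjusted p = 0.00697) in fresh cells and -3.66 ± 0.46 (adjusted p = 0.00519) in cultured cells, each against tumor-free cells.

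The fall of Slc12a2 in fresh cells lay between -3.66 and -2.68 when any 1 array was left out, with adjusted p up to 0.0403. It was -1.61 within the high and -3.85 within the low spike-in class. Cultured cells gave -2.46 and -4.10 within these classes. Macrophage markers were also lower in fresh cells. Of 10 tested of 12 listed, 5 fell (C1qa, C1qb, Mrc1, Hmox1 and Aif1), which is 50% against 1.9% of all probe sets. The summed signal of the list was 6075 on tumor-free 1 and 16316 and 16942 on tumor-free 2 and 3. It was 2529 to 3151 on the fresh and 3668 to 4794 on the cultured arrays, with no marker listed at 0. From fresh to cultured cells Slc12a2 was at -0.65 (limma adjusted p = 0.549). There 4 of the 10 macrophage markers were higher and the rest lower by value, with a median log2 fold change of -0.75. In cultured against tumor-free cells 5 of the 10 fell (50%, against 1.23% of all probe sets), with a median of -3.45. Of 14 tested neutrophil markers, 2 also fell in fresh cells (Csf3r and Cxcr2), or 14.3%, while 11 were higher by value. B cell markers, with 0 of 7 tested called, summed to 204 on tumor-free 1 and 1216 and 1170 on its pair. Their sum was 432 to 502 in fresh and 319 to 714 in cultured cells. The part of these 3 lists in the Slc12a2 result was not tested. In these bulk samples, fewer cells of a type and less RNA per cell cannot be told apart.

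Other members of the cation and chloride family were dimmer or more variable. Slc12a7, a potassium and chloride exporter, had signals of 90.3, 103 and 101 on the tumor-free arrays, 37.7 to 52.2 on the fresh arrays and 16.5, 33.3 and 49.5 on the cultured arrays. Neither tumor-bearing group overlapped the tumor-free group. Its log2 fold change in cultured against tumor-free cells, -1.46 ± 0.33, missed the threshold (limma adjusted p = 0.0661), as did that in fresh cells, -1.01 (adjusted p = 0.15). The cultured value was called without tumor-free 1 (-1.51, adjusted p = 0.0432) or cultured 3 (-1.74, adjusted p = 0.0236). Slc12a4, another potassium and chloride exporter, went the other way in the same comparison (1.67, adjusted p = 0.268), but tumor-free 1, at 70.5 where its pair had 9.11 and 15.99, overlapped the cultured arrays (69.6 to 129). Without tumor-free 1 the rise was called (2.32, adjusted p = 0.0429).

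Slc4a1, the band 3 anion exchanger of red cells, had signals of 42.4, 71.4 and 90.2 in tumor-free, 114, 102 and 182 in fresh and 77.4, 54.3 and 63.0 in cultured cells. The fresh arrays lay above all others. The differences, 0.90 ± 0.32 in fresh against tumor-free and -0.92 ± 0.32 in cultured against fresh cells, did not pass (limma adjusted p = 0.196 and 0.177). Of the erythroid markers, 0 of 10 tested of 16 listed passed limma's test in either comparison. In each, 4 had an unadjusted p below 0.05 (40%, against 16.7% and 16.3% of all probe sets). The summed signal of the list was 1300 to 3042 in tumor-free, 6185 to 7141 in fresh and 1784 to 7901 in cultured cells, with none listed at 0. Cultured 3 had the highest sum of all arrays. Of the tested markers, Hba-a1 (6541), Alas2 (271) and Car2 (402) lay above all fresh arrays there. Rhd (8.68), Tfrc (329), Klf1 (46.6) and Rhag (47.9) lay below all fresh arrays. In mean log2 signal over the list cultured 3 lay at 6.34, below the fresh arrays (6.61 to 6.88). Its Slc4a1 signal also lay below all fresh arrays. The part of these markers was not tested. Over all 10 tested inorganic ion and pH exchangers, Slc12a2 was the 1 call in either comparison with tumor-free cells (10%, against 1.9% and 1.23% of all probe sets). In the culture comparison 0 passed, and 3 had an unadjusted p below 0.05 (30%, against 16.3% of all).

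The amino acid and peptide group, filed by family number, is the largest, with 33 genes of which 26 were tested. None passed limma's test in any comparison, and 2, 4 and 7 had an unadjusted p below 0.05 in the 3 comparisons in turn. These are 7.69%, 15.4% and 26.9% of the 26 genes, against 16.7%, 16.3% and 14.1% of all probe sets. Their median log2 fold changes were 0.27, -0.15 and 0.08. Slc3a2 (CD98 heavy chain) is the glycoprotein that carries several light chains to the cell surface, and Slc7a11 (xCT) is the light chain that with it exchanges glutamate for cystine, the source of cysteine for glutathione. Both were highest in cultured cells by mean. Their upstream sequences, the 250 bases before the RefSeq gene start, are shown for this pair because Slc7a11 is a known target of the amino acid response factor ATF4, and capitals mark the motif matches described after them.

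Slc3a2: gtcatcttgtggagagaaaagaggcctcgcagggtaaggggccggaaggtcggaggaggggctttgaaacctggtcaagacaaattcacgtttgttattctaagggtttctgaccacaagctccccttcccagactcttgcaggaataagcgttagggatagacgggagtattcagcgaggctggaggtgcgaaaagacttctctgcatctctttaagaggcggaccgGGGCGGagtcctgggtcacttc
Slc7a11: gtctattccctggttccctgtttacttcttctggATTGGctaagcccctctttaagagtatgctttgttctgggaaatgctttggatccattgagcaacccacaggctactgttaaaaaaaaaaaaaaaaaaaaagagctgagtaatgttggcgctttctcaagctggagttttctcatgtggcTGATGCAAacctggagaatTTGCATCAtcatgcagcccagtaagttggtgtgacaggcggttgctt

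These stretches are chr19:8713898-8714147 and chr3:50443614-50443863 of GRCm38.p6, both on the minus strand. The Slc7a11 window holds 2 matches to the amino acid response element core TGATGNAA, starting 66 and 47 bases before the gene start on opposite strands, and 1 CCAAT box. The Slc3a2 window holds 1 GC box (GGGCGG) and no match to that core. The core occurs in 3.45% of all 32851 upstream windows and in 3.47% of the 173 windows of the members. A match is a description of the letters and not a bound site.

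The Slc3a2 signal was 736, 454 and 442 on the tumor-free, 729, 562 and 573 on the fresh and 1127, 1360 and 917 on the cultured arrays. All cultured arrays lay above all others. The log2 fold change in cultured cells was 0.85 ± 0.28 against fresh and 1.07 ± 0.28 against tumor-free cells, neither past limma's threshold (adjusted p = 0.141 and 0.0986). The culture difference passed with the spike-in class blocked (adjusted p = 0.0427), where 556 of all probe sets were called against 234 in the main fit. Without tumor-free 1 the difference from tumor-free cells passed. Slc7a11 gave 46.9, 5.63 and 12.4 in tumor-free, 47.9, 38.5 and 58.4 in fresh and 91.2, 104 and 45.8 in cultured cells. Tumor-free 1 lay among the fresh arrays, so the groups overlapped. Its log2 fold changes were 1.17 ± 0.49 in fresh and 1.77 ± 0.49 in cultured against tumor-free cells (adjusted p = 0.259 and 0.125). Both passed without tumor-free 1, at 1.75 and 2.35 (adjusted p = 0.0249 and 0.00658), and the fresh value was -0.11 within the high spike-in class.

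The cationic amino acid carriers Slc7a2 and Slc7a7 pointed in opposite directions by value. Slc7a2 (CAT2), which imports arginine, had signals of 61.7, 50.5 and 66.2 in tumor-free, 93.4, 155 and 58.0 in fresh and 199, 139 and 156 in cultured cells. The cultured arrays all lay above the tumor-free ones, and the difference of 1.35 ± 0.33 missed limma's threshold (adjusted p = 0.0888, and 0.04895 without fresh 3), as did that against fresh cells (0.74, adjusted p = 0.301). Slc7a7 (y+LAT1), which exchanges cationic for neutral amino acids with Slc3a2, had 95.9, 371 and 280 in tumor-free, 93.8, 79.9 and 94.0 in fresh and 11.3, 86.4 and 155 in cultured cells. Tumor-free 1 was again close to the fresh arrays. Its differences from tumor-free cells were -1.21 ± 0.70 in fresh and -1.75 ± 0.70 in cultured cells (adjusted p = 0.396 and 0.285). With 1 array left out the cultured value lay between -2.40 and -0.86, the latter without cultured 1. The fresh value was -0.14 within the high and -1.70 within the low spike-in class.

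**Figure D2:**
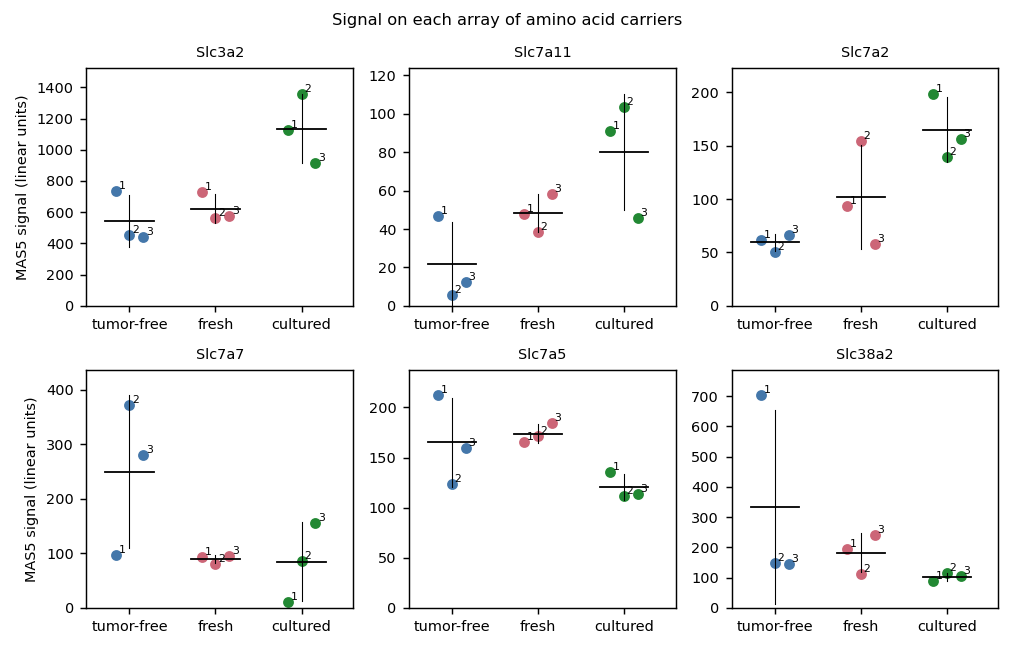
MAS5 signal (y axis, linear units from 0) of 6 amino acid carriers on each array, by group, with the replicate number beside each point, the group mean as a horizontal line and the SD (n = 3) as a vertical line, cut at 0. Slc3a2 in cultured cells (917 to 1360) lies above all other arrays, and tumor-free 1 lies apart from its pair for Slc7a11, Slc7a7 and Slc38a2.

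Slc38a2 (SNAT2), a sodium-coupled glutamine and alanine carrier that amino acid shortage induces, showed how 1 array can set a group mean. It gave 703 on tumor-free 1, where its pair had 149 and 145, 194, 112 and 240 in fresh and 88.0, 114 and 104 in cultured cells. The cultured difference from tumor-free cells was -1.23 (limma adjusted p = 0.323), and -0.50 without tumor-free 1. Within the high spike-in class, where tumor-free 1 is the only tumor-free array, it was -2.72. Of the 4 probe sets of Slc38a2 only this brightest one was tested, and the others lay above the array's median on 0 arrays. Another, with means of 5.41 in tumor-free, 18.6 in fresh and 6.96 in cultured cells, pointed the other way in fresh against tumor-free cells. It was at 0.89 with no filter, where the brightest was at -0.50 in the main fit. Slc7a5 (LAT1), the leucine carrying light chain of Slc3a2, had group means of 165 ± 44.7 in tumor-free, 174 ± 9.83 in fresh and 121 ± 13.2 in cultured cells (SD, n = 3). The fresh and cultured arrays did not overlap, although the difference did not pass. Slc7a8 (LAT2) ran from 26.96 to 66.0 and the glutamine carrier Slc1a5 (ASCT2) from 7.13 to 44.1 over the 9 arrays, and the groups of each overlapped in the culture comparison. Slc7a8 in fresh cells (47.1 to 66.04) lay wholly above tumor-free cells (26.96 to 46.1), without passing the test (0.50, limma adjusted p = 0.387). Slc1a2, a glutamate carrier best known in astrocytes, was 67.8, 85.8 and 37.2 in cultured against 24.5, 31.4 and 13.7 in fresh cells (1.18 ± 0.43, adjusted p = 0.189).

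Heme and metal carriers held both rises of the culture comparison. Slc48a1 (HRG1) moves heme out of the phagolysosome after red cells are engulfed. Its signals were 70.5, 140 and 138 in tumor-free, 31.5, 78.4 and 69.5 in fresh and 214, 278 and 147 in cultured cells. The cultured arrays lay above all others, and the fresh mean (59.8 ± 24.9) was the lowest. The log2 fold change on culture was 1.74 ± 0.39 (limma adjusted p = 0.0391). It was 2.11 within the high and 0.9997 within the low spike-in class, and the fresh difference from tumor-free cells, -0.89, did not pass. The call was lost when any array but tumor-free 1 and cultured 3 was left out (adjusted p up to 0.169), and with arrays centred on their medians or with no filter. Of the 10 tested macrophage markers 1 rose in the same comparison, the heme oxygenase Hmox1 (1.71, adjusted p = 0.0232), which degrades heme, and 1 fell, Mrc1. Together these are 20% of the markers tested, against 2.69% of all probe sets. The part of the marker list in this result was not tested.

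Slc39a4 (ZIP4), a zinc importer, had 2 tested probe sets that disagreed. The dimmer one gave 43.2, 58.1 and 68.9 in tumor-free, 52.02, 58.7 and 39.7 in fresh and 108, 138 and 221 in cultured cells, and rose by 1.45 ± 0.31 on culture (limma adjusted p = 0.0354). Its call was lost without tumor-free 2 or 3, fresh 1, 2 or 3, or cultured 2 or 3 (adjusted p up to 0.117), and with no filter. The brighter probe set, whose suffix marks probes that missed the usual selection rules, pointed down (-0.62). A direction for the gene therefore cannot be given. Slc31a1 (CTR1), the copper importer, was named after its values were seen because its 2 probe sets pointed the same way on culture, with 1.13 (adjusted p = 0.259) and 0.83 (adjusted p = 0.102), neither past the threshold. Over the 13 tested metal carrier genes by brightest probe set, 0 passed in any comparison, and 2, 2 and 3 had an unadjusted p below 0.05. These are 15.4%, 15.4% and 23.1%, against 16.7%, 16.3% and 14.1% of all probe sets.

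**Figure D3:**
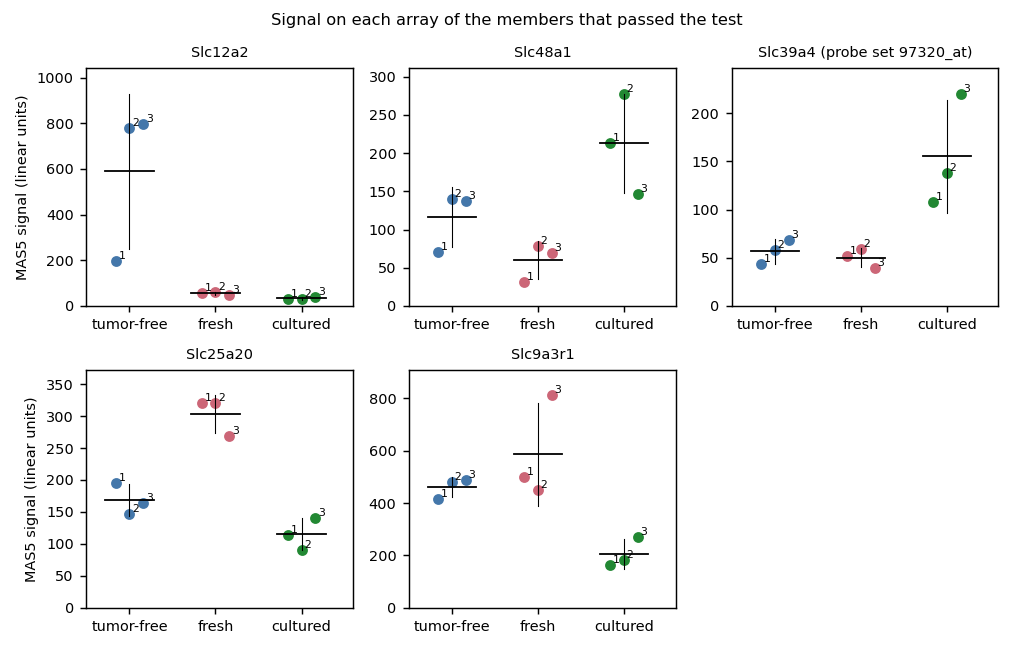
MAS5 signal (y axis, linear units from 0) on each array of the 5 probe sets called in at least 1 comparison, by group, with the replicate number beside each point, the group mean as a horizontal line and the SD (n = 3) as a vertical line. Slc12a2 is high on tumor-free 2 and 3 and intermediate on tumor-free 1, Slc48a1 and Slc39a4 are highest in cultured cells, and Slc25a20 is highest in fresh cells.

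Both falls of the culture comparison were genes with an upstream window in the RefSeq table. The 250 bases before the gene start of each are shown because the pair fell together, with matches to the searched motifs in capitals.

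Slc25a20: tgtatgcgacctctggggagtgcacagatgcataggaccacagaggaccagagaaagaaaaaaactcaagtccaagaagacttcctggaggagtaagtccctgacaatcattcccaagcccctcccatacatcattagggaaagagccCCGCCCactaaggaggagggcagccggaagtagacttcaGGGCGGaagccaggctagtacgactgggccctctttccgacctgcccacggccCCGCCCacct
Slc9a3r1: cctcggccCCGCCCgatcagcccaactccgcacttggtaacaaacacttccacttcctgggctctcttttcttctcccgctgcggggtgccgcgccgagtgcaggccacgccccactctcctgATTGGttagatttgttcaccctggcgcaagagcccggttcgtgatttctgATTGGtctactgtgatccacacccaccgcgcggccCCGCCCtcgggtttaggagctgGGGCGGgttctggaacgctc

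They lie at chr9:108661886-108662135 and chr11:115163091-115163340 of GRCm38.p6, on the plus strand. Each window holds 3 GC boxes, and that of Slc9a3r1 holds 2 CCAAT boxes as well. A GC box occurs in 54.9% of the members' windows and in 32.7% of all windows, and a CCAAT box in 27.2% and 33.8%. The other motifs searched, on both strands as for all, were the nuclear receptor half-site AGGTCA, the antioxidant response element core TGACNNNGC, the cAMP response element TGACGTCA and the E-box CACGTG. None of these 4 matched in the 4 windows shown, and no marked matches overlapped.

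Slc25a20 (CACT) exchanges acylcarnitines for carnitine across the inner mitochondrial membrane, the step that brings long fatty acids to oxidation. Its signals were 196, 147 and 164 in tumor-free, 320.2, 319.7 and 269 in fresh and 114, 91.0 and 140 in cultured cells. The fresh group overlapped neither other group, and its mean of 303 ± 29.2 compared with 169 ± 24.9 in tumor-free and 115 ± 24.8 in cultured cells. It fell on culture by 1.35 on the log2 scale (SE 0.24, limma adjusted p = 0.0156), by 1.58 within the high and 0.90 within the low spike-in class. The fresh difference from tumor-free cells, 0.82 ± 0.24, missed the threshold (adjusted p = 0.12). Markers of the exocrine pancreas were also highest in fresh cells. Of 13 tested of 20 listed, 11 (84.6%, all 1.9%) were called higher than in tumor-free cells and 11 (84.6%, all 2.69%) lower after culture. Their summed signal was 630 to 928 in tumor-free, 13382 to 22731 in fresh and 611 to 1239 in cultured cells, with none listed at 0, and their part in this result was not tested. The call of Slc25a20 was lost when any of fresh 1 and 2 and cultured 1 and 2 was left out (highest adjusted p 0.0826).

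The adenine nucleotide carriers exchange ADP for ATP across the same membrane. Slc25a4 (ANT1) had 419, 199 and 207 in tumor-free, 134, 112 and 71.1 in fresh and 255, 433 and 160.0 in cultured cells. The fresh arrays lay below all others. Its log2 fold changes of -1.28 ± 0.41 in fresh against tumor-free and 1.29 ± 0.41 in cultured against fresh cells missed limma's threshold (adjusted p = 0.143 and 0.134). Both passed with the spike-in class blocked (-1.58 and 1.29, adjusted p = 0.0084 and 0.013), where 277 and 556 of all probe sets were called. Slc25a5 (ANT2), a close paralog, had 3 tested probe sets that did not point one way. In fresh against tumor-free cells they gave 0.14, -0.49 and -1.23, the first from a probe set whose suffix marks probes shared within a gene family, so the paralogs may share signal there. Slc25a45, a mitochondrial carrier, had the highest rise by value in fresh cells (1.48 ± 0.71, adjusted p = 0.316), from signals of 114 and 122 on fresh 1 and 2 but 12.1 on fresh 3. Of the 18 tested mitochondrial carrier genes, Slc25a20 was the 1 call of the culture comparison (5.56%, against 2.69% of all probe sets). At an unadjusted p below 0.05 there were 5, 6 and 2 in the 3 comparisons in turn. These are 27.8%, 33.3% and 11.1%, against 16.7%, 16.3% and 14.1% of all probe sets.

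Slc9a3r1 (NHERF1) has the prefix of the sodium and proton exchangers but is a PDZ scaffold that tethers membrane proteins to ezrin and actin, and it is 1 of 3 members that are adaptors and no carriers. Its signals were 416, 479 and 488 in tumor-free, 499, 448 and 811 in fresh and 164, 181 and 272 in cultured cells. The cultured arrays lay below all others. On culture it fell by 1.46 (SE 0.29, limma adjusted p = 0.0223), by 1.42 within the high and 1.55 within the low spike-in class, and cultured against tumor-free cells it was -1.17 ± 0.29 (adjusted p = 0.0898). The latter passed with spike-in class blocked and without tumor-free 1 or cultured 3. The call was lost when any fresh array or cultured 1 or 2 was left out. Neutrophil markers were also lower in cultured than in fresh cells, with 2 of 14 tested called (Mpo and Prtn3), or 14.3% against 2.69% of all probe sets. Against tumor-free cells 4 of the 14 were higher by value. There 2 were called as lower, Csf3r and Cxcr2 (14.3%, against 1.23% of all). The summed signal of the neutrophil list was 34450 to 49827 in tumor-free, 49997 to 61630 in fresh and 16199 to 44816 in cultured cells, with none listed at 0. The part of the list was not tested.

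Among nucleoside and sugar carriers no member was called apart from the heme carrier. Slc29a1 (ENT1), which equilibrates adenosine and other nucleosides, had 88.1, 137 and 176 in tumor-free, 61.9, 48.5 and 27.4 in fresh and 193, 198 and 28.4 in cultured cells. Fresh cells were lowest except for cultured 3, which lay with them. The log2 fold changes were -1.40 ± 0.60 and 1.15 ± 0.60 in the first and second comparison (limma adjusted p = 0.27 and 0.383), the latter called at 1.97 without cultured 3 (adjusted p = 0.0194), and a second probe set pointed the other way (0.55 and -0.58). Slc2a3 (GLUT3), a glucose carrier of leukocytes, ran from 38.01 to 134 in tumor-free, 80.9 to 115 in fresh and 39.4 to 101 in cultured cells, so all 3 groups overlapped. Of the 6 tested sugar carriers 0 passed and 0 had an unadjusted p below 0.05 in each comparison.

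The 58 member probe sets below the filter were not tested, and 11 members stayed under the offset of 7.83 on all arrays. The monocarboxylate carrier Slc16a1 (MCT1) was among the untested, with signals of 0.85 to 7.99. Slc16a3 and Slc15a3, carriers listed for naming, had no member probe set. 3 dim carriers were singled out after their values were seen. Slc22a4 (OCTN1), an ergothioneine and carnitine carrier, had 2.37 to 5.05 on all uncultured arrays and 57.9, 57.5 and 17.1 on the cultured arrays. In the fit with no filter it passed limma's test against fresh (2.01, adjusted p = 0.0207) and tumor-free cells (2.16, adjusted p = 0.0253). The bicarbonate carrier Slc4a4 had 1.89 to 5.37 in tumor-free and 15.3 to 32.5 on the tumor-bearing arrays, at 1.38 and 1.40 (adjusted p = 0.0608 and 0.0712). Slc2a2 (GLUT2), a glucose carrier of liver and pancreatic islets, had 24.02 and 24.4 on fresh 1 and 2, a signal under the offset on fresh 3, and 0.74 to 2.39 elsewhere, alongside the pancreas markers above (adjusted p = 0.0878 against tumor-free cells).

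Transport genes outside the family were counted beside the same shares of all probe sets (1.9%, 2.69% and 1.23% called). Of 19 tested genes of the ABC family, pumps that spend ATP to export lipids, drugs and conjugates, 1 fell in fresh against tumor-free cells. It was the conjugate exporter Abcc3 (-2.41, limma adjusted p = 0.00497). On culture 0 passed, and 5 had an unadjusted p below 0.05 (26.3%, against 16.3% of all). In cultured against tumor-free cells Abcc3 fell (-2.17, adjusted p = 0.0133) and the glutathione conjugate exporter Abcc1 rose (2.89, adjusted p = 0.00657). Of 12 tested sodium pump subunits and carrier partners and regulators, 1 was called, Sgk1, a kinase that raises carriers at the membrane, which rose on culture (1.80, adjusted p = 0.0272). Txnip, which removes glucose carriers from the surface, was at -1.07 in fresh cells and 1.27 on culture (adjusted p = 0.131 and 0.0674). Stk39 and Wnk1, kinases that activate Slc12a2, were named after their values were seen and were at 0.10 and -0.01 in fresh against tumor-free cells. Of 12 tested amino acid response genes 1 fell in fresh cells, the transcription factor Atf3 (-1.45, adjusted p = 0.0287). In the other comparisons 0 were called, and 2 and 1 had an unadjusted p below 0.05 (16.7% and 8.33%, against 16.3% and 14.1% of all).

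Genes with several tested probe sets show how far a direction can be trusted. There were 15 such members, and their probe sets pointed the same way for 8, 8 and 10 of them in the 3 comparisons in turn. Slc39a4, Slc25a5 and Slc2a3 disagreed in all 3. Slc12a2, Slc48a1, Slc25a20 and Slc9a3r1 have 1 probe set each, so no second probe set bears on them.

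**Figure D4:**
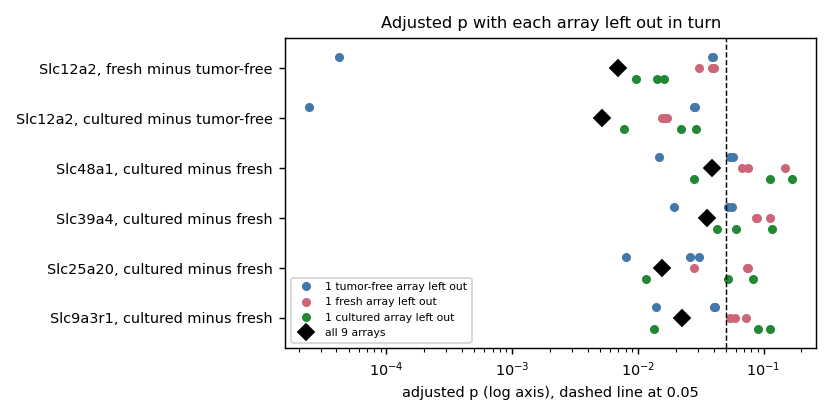
Adjusted p (x axis, log scale) of the 6 calls with all 9 arrays (black diamonds) and with each array left out in turn (circles, colored by the group of the array left out), with a dashed line at 0.05. Both Slc12a2 calls stay left of the line throughout, with adjusted p up to 0.0403 and 0.0292, whereas each culture call crosses it for at least 4 of the 9 arrays.

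The number of calls depended on single arrays. In the first comparison the member count was 3 without tumor-free 1, where 624 of all probe sets were called. In the second it was 2 without tumor-free 2 or tumor-free 3 (193 of all probe sets each time). It was 0 without fresh 1, fresh 2 or cultured 2 (74, 81 and 78 of all). It was 1 without fresh 3 or cultured 1 (184 and 141 of all), and 7 without cultured 3 (431 of all). At the 3 counts of 0 by limma, 21, 17 and 20 members had an unadjusted p below 0.05. In the third comparison the member count was 10 without tumor-free 1 (529 of all probe sets), 2 without fresh 3 (100) and 5 without cultured 3 (221).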

How the data were processed

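The authors deposited 1 array intensity per probe set and array, a MAS5 signal on a linear scale per the submitters' processing notes; its version and settings are not stated in the labels. RNA was extracted with TRIzol, and 5 ug per array were labeled with biotin, per the labels' protocols. The 2% trimmed mean was 100.06 to 100.08 on every array, so the values were used as scaled. Detection calls were not used here, so a dim signal may or may not exceed background, and precision is limited by how many arrays there are.

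The offset of 7.83 is the 20th percentile of all values. The 66 control probe sets and the dimmest 30% by mean log2 value were removed, leaving 8695. Group means of all 9 arrays were fitted in limma 3.58.1 (R 4.3.3) with an intensity trend and 6 residual degrees of freedom, two-sided. P-values were adjusted by Benjamini-Hochberg over these 8695, with 0.05 as the threshold. The model was run on simulated data with independent noise on each array. No simulated array stood apart from its group, so that run does not bear on the error rate here. Alternatives were quantile normalization, median centring, offsets of 2.11 and 24.7, no filter, a 50% filter, blocks by replicate number and spike-in class, and each array left out.

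The platform annotation gave 1 symbol for 10855 probe sets, several for 396 and did not list 1237. All 183 member probe sets matched a RefSeq gene ID, which changed 0 symbols, and 122 of 149 genes had an upstream window in RefSeq (GRCm38.p6). Named genes are called members, the 6 largest changes per comparison, 18 carriers known in leukocytes, and of the lists outside the family the called members and the largest changes. The members and lists were chosen with earlier results of these data known.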

Additional observations from a re-analysis of the deposited data

How the results depend on the processing

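Single members were followed in the comparisons in which their changes are named. Of their values under the alternatives, 426 kept direction and side of the threshold, 44 passed it, 26 lost it, and 1 reversed: Slc7a11 in fresh against tumor-free cells, at -0.11 within the high spike-in class. The cause was not tested. Counts of called members with each array left out ranged from 1 to 3, from 0 to 7 and from 1 to 10 in the 3 comparisons in turn. Over all probe sets the counts ranged from 62 to 624, from 74 to 489 and from 21 to 529. For cultured against tumor-free cells the member count was 2 with the 40th percentile offset (125 of all probe sets) and 2 with no filter (93 of all). With spike-in class blocked it was 3 (177 of all), and 2 for fresh against tumor-free cells (277 of all). For cultured against fresh cells it was 6 with that block (556 of all). With the closest pair of arrays per group, which was chosen after seeing the data, the member counts were 22, 22 and 28. Over all probe sets 2141, 1368 and 1813 were called there. That setting keeps the most similar arrays, so the spread is small by its construction. Within the high spike-in class the counts were 4, 21 and 4, and within the low class 25, 16 and 20. The fits within these classes were also added after seeing the data. They rest on 2 and 1 residual degrees of freedom with single arrays in some groups, each assumed to vary like the others. Quantile normalization, median centring, the 5th percentile offset and the 50% filter left counts within 1.5 times. Same-numbered arrays deviated together in 5 of 9 pairs (correlation above 0.1, range -0.2 to 0.259) and 4 of 9 arrays correlated best with their own number, so the numbers were not taken as pairs. With the replicate block the counts were 1, 4 and 1.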
